A study of Homo sapiens with 4 samples.

Results

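RAB GTPases and the proteins that switch them were examined through their skipped exons in MDA-LM2 cells depleted of SNRPB2. Members were all events present in both deposited files whose skipped exon shared a start or an end with an exon of a protein-coding GENCODE release 29 gene named RAB plus a digit or named TBC1D. The rule found 211 of 39919 events, which hold 182 of 34037 skipped exons. They lie in 71 of the 119 genes of these names, and the other 48 genes had no event in both files. In all, 35 of 63 RAB GTPase genes, 10 of 12 genes for RAB-named partners and 26 of 44 TBC1D genes were represented.

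RAB proteins are small GTPases that mark the membranes of the cell, each on its own set of compartments. Exchange factors load them with GTP, upon which they bind effectors that move, tether or fuse vesicles, and GTPase-activating proteins (GAPs) return them to the inactive GDP form. Most RAB GAPs carry a TBC domain, and the TBC1D genes are the largest named group of them. Breast cancer cells use these routes to recycle receptors and integrins and to secrete enzymes and vesicles. SNRPB2, also called U2B″, is a protein of the U2 snRNP, the particle that recognises the branch point of introns.

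MDA-LM2 is a human breast cancer line, derived from MDA-MB-231 by selection for growth in lung. The siSNRPB2 group holds 2 libraries from cells transfected by lipofection with siRNAs against SNRPB2, for which the submitters chose a pair of independent siRNAs with a knockdown above 95% by qPCR. The siCtrl group holds 2 libraries from control cells, transfected with siControl (IDT), which the submitters also call mock-transfected. Total RNA was taken at 48 h in both groups, and libraries were made with a stranded total RNA kit for small inputs. The labels do not say which siRNA went into which library, and each file gives a single value for every event. No difference below has a replicate check, and no test was made.

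The siSNRPB2 file lists 42670 events with 93580246 reads summed over events, and the siCtrl file 42159 events with 100579230 reads. A read can count in several events of those sums. Markers of mesenchymal-like breast cells, fixed as a list of 12, were measured for 9, with 60364 summed reads in siSNRPB2 and 78598 in siCtrl. Most of these came from CD44, with 38883 and 50227. The marker reads are not scaled to the depth of the files. Of 10 epithelial markers 3 were measured, with 11707 summed reads in siSNRPB2 and 14244 in siCtrl, nearly all of them from KRT8. Of 8 blood and endothelial markers 3 were measured, with 93 reads in siSNRPB2 and 77 in siCtrl. These went both ways, with 8 and 51 reads for PTPRC, 30 and 1 for CD3E and 55 and 25 for VWF. All 3 luminal markers were measured, with 328 summed reads in siSNRPB2 and 416 in siCtrl, and they did not move together: GATA3 had 173 and 353 reads and FOXA1 145 and 62. SNRPB2 had no event, and its level is not analysed here.

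The measure is ψ, estimated by the authors with MISO and deposited with an interval whose level is not stated. Each event sets a skipped exon between given flanking exons. ψ is the fraction with the exon among the event's isoforms with and without it, not among all transcripts of the gene. Reads that fit only the isoform with the exon are called inclusion reads here, and those that fit only the isoform without it, mostly across the skipping junction, are called skipping reads. Both kinds are informative. Reads that fit both isoforms, mostly inside the flanking exons, also enter ψ. A minimum of 20 informative reads per file was set, and 108 member exons in 56 genes reached it. The call rule asked for a Bayes factor of 10 or more in the authors' deposited table and a ψ difference, siSNRPB2 minus siCtrl, of at least 0.1 in size. The informative reads of the 108 exons ran between 22 and 3717 in siSNRPB2, with a median of 138.5, and between 20 and 4685 in siCtrl, with a median of 172. Overlapping variants of one exon count separately, and the 108 exons occupy 95 positions.

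The exons below are printed from GENCODE release 29 transcripts (hg38), 5′ to 3′ on the gene's strand. The exons of TBC1D25 and TBC1D2 and the 120-nt exon of TBC1D1 are shown because both files hold 50 or more informative reads and some skipping reads for these called exons, and they are coding and at most 300 bases long. The others were chosen after their values were seen: the RAB29 and RAB7A exons had the largest ψ differences among called GTPase exons, the first lower and the other higher, and the exons of RAB18, TBC1D9B and TBC1D1 (162 nt) had small differences beside a high Bayes factor.
TBC1D25 exon of 155 nt, chrX:48544869-48545023, plus strand: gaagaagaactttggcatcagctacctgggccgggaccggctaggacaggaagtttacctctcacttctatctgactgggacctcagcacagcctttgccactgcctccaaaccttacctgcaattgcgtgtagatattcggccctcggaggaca
TBC1D2 exon of 142 nt, chr9:98251785-98251926, minus strand: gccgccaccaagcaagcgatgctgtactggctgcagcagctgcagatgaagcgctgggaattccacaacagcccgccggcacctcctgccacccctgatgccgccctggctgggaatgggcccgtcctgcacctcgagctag
TBC1D1 exon of 120 nt, chr4:38053106-38053225, plus strand: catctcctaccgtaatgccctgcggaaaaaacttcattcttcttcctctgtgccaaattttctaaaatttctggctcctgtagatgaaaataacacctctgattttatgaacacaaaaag
TBC1D1 exon of 162 nt, chr4:38051899-38052060, plus strand: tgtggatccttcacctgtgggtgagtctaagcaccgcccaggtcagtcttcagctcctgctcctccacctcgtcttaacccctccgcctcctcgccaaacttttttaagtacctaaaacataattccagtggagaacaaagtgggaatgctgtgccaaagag
TBC1D9B exon of 51 nt, chr5:179867445-179867495, minus strand: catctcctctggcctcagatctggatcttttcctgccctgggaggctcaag
RAB29 exon of 72 nt, chr1:205772496-205772567, minus strand: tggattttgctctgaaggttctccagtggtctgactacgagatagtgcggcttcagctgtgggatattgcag
RAB7A exon of 129 nt, chr3:128807543-128807671, plus strand: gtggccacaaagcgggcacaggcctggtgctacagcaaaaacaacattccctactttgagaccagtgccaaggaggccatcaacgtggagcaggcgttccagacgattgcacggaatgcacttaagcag
RAB18 exon of 87 nt, chr10:27531529-27531615, plus strand: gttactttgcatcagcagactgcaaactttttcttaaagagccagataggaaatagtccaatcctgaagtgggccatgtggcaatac

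RAB6A carries a pair of neighbouring exons of the same length that code for the same stretch of the GTPase and give the isoforms RAB6A and RAB6A′. Capitals mark the 31 of 106 positions at which the 2 exons differ, so 75 positions (70.8%) are identical, and 66 bases separate the exons in the genome.
RAB6A upstream exon of 106 nt, chr11:73718785-73718890, minus strand: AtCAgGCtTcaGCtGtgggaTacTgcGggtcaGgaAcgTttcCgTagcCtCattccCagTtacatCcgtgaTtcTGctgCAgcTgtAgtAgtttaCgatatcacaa
RAB6A downstream exon of 106 nt, chr11:73718613-73718718, minus strand: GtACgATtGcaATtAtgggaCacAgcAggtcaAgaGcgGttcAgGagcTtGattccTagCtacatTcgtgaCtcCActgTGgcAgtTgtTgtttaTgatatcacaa

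Across the family, 13 of 108 exons (12.04%) were called, against 14.7% of all 18682 skipped exons with enough reads in the files. Inclusion was lower in siSNRPB2 for 8 of them (7.41%, against 7.61% of all exons) and higher for 5 (4.63%, against 7.13%). Both shares lie near or below the background of the files. The median size of the ψ difference was 0.02 for the members and 0.03 for all exons. For none of the 13 did the deposited intervals of siSNRPB2 and siCtrl overlap, and they overlapped for only 51 of all 2754 called exons. The absence of overlap is thus common to nearly all called exons and is no trait of the members. The GTPases had 4 called exons of 58 (6.90%), the RAB-named partners 3 of 12 (25.0%) and the TBC1D genes 6 of 38 (15.8%). The partners are grouped by name alone, and their 12 exons include uncalled ones of RAB5IF and RAB4B-EGLN2.

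**Figure D1:**
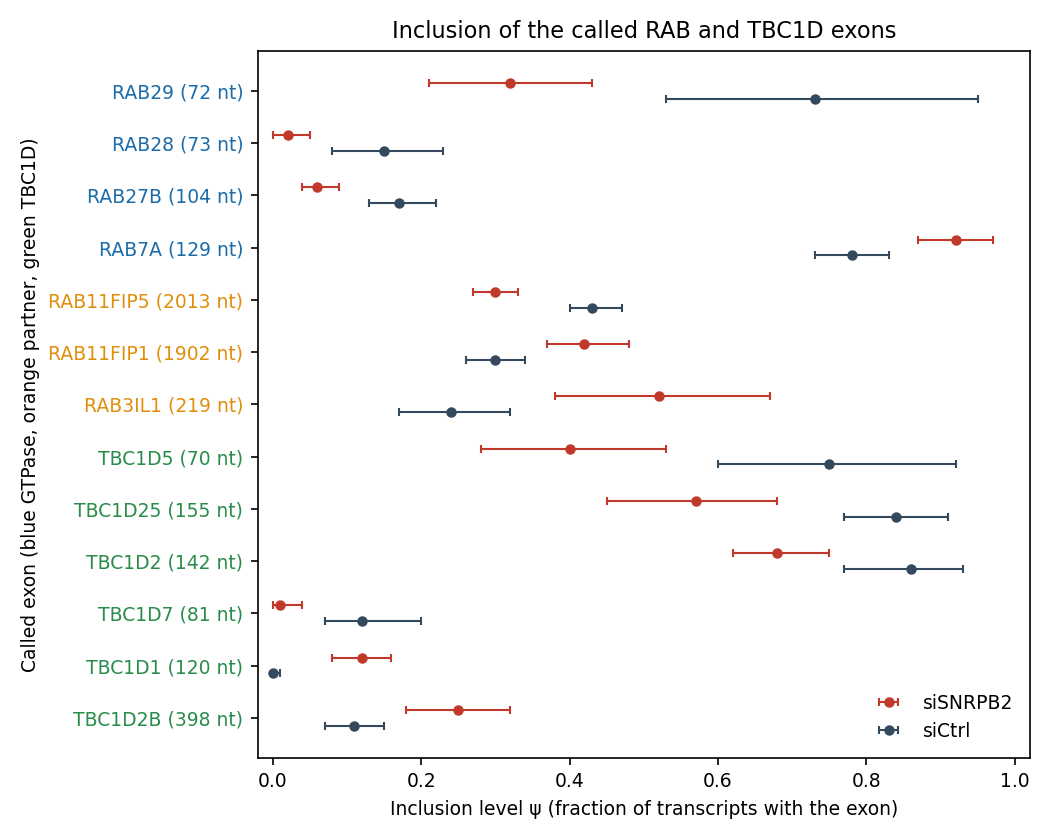
Inclusion level ψ (x axis, fraction with the exon among the event's isoforms with and without it) of the 13 called exons, by gene and exon length (y axis). Red points above are siSNRPB2, dark points below are siCtrl, and bars are the deposited intervals. These do not overlap for any exon shown, and overlap for only 51 of all 2754 called exons. Among the 4 GTPase exons RAB7A alone is higher in siSNRPB2, at 0.92 against 0.78.

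Most GTPase exons had high ψ in both files. ψ was at least 0.95 in both files for 33 of 58 (56.9%), compared with 30.1% of all exons, and at most 0.05 in both for 7. The 33 include the RAB34 exons of 79, 186, 213, 381, 408 and 435 nt, variants that share a boundary. These cannot all be constitutive, and they make the share larger than it is by position. Over all members the counts at these levels were 43 of 108 (39.8%) and 12 (11.1%), the second against 16.6% of all exons. An exon at such a level in both files cannot reach a difference of 0.1. Among the 56 member exons with ψ between 0.05 and 0.95 in at least 1 file, 13 (23.2%) were called, against 26.0% of all such exons.

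**Figure D2:**
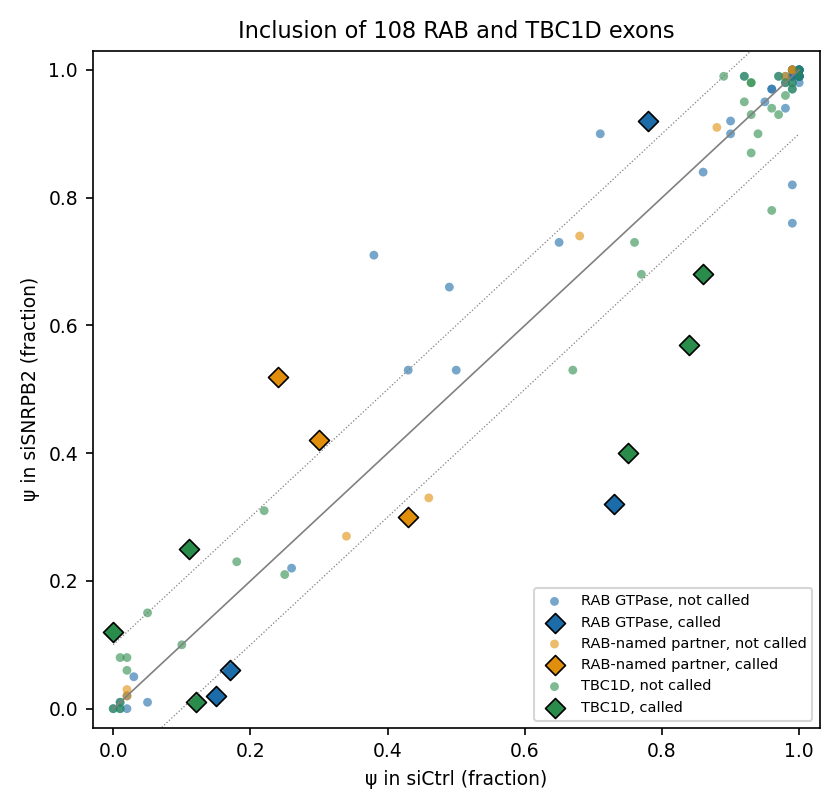
ψ of the 108 member exons in siSNRPB2 (y axis, fraction) against siCtrl (x axis, fraction), coloured by role, with diamonds for the 13 called exons. The solid line marks equal ψ and the dotted lines a difference of 0.1. Most GTPase exons sit in the top right corner, where ψ is at least 0.95 in both files.

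Among the GTPases, the exon with the largest called difference was in RAB29, a GTPase of the trans-Golgi network and lysosomes that recruits the kinase LRRK2. ψ of its coding 72-nt exon was 0.32 (interval 0.21 to 0.43) in siSNRPB2 and 0.73 (0.53 to 0.95) in siCtrl, and the authors' deposited table gives a Bayes factor of 329.23. There were 31 inclusion and 530 both-isoform reads in siSNRPB2, compared with 42 and 315 in siCtrl. No skipping read was seen in either file, which allows a share of up to 9.68% of informative reads in siSNRPB2 and 7.14% in siCtrl, from counting error only. The ψ difference of RAB29 thus rests on how reads divide between the exon and its flanks, and no read across the skipping junction was seen.

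RAB7A, which directs late endosomes to lysosomes, was the most deeply read member. Its coding 129-nt exon, exon 5 of 6, had ψ of 0.92 (0.87 to 0.97) in siSNRPB2 and 0.78 (0.73 to 0.83) in siCtrl, and the authors' deposited table gives a Bayes factor of 1485818766.31. The reads were 1262 inclusion and 16301 of both isoforms in siSNRPB2, and 1188 and 18323 in siCtrl. Skipping reads were again absent from both files, which allows a share of up to 0.238% in siSNRPB2 and 0.253% in siCtrl. Skipping reads thus made up less than 1% of the informative reads in either file, while the deposited ψ lay below 1 in both.

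The remaining called GTPase exons had low ψ in both groups. RAB28, a farnesylated GTPase linked to cilia and photoreceptors, has alternative 3′ exons, and the upstream one, of 73 nt and partly coding, had ψ of 0.02 (0 to 0.05) in siSNRPB2 and 0.15 (0.08 to 0.23) in siCtrl. Its junctions were read directly: 0 inclusion and 28 skipping reads in siSNRPB2, compared with 16 and 54 in siCtrl. The 0 allows a share of up to 10.7% of informative reads. The neighbouring 95-nt exon, between the same flanks, had ψ of 0.53 in siSNRPB2 and 0.50 in siCtrl, with 68 and 89 inclusion reads, and was not called. Of the inclusion reads of this pair of exons, the 73-nt exon took 0 of 68 in siSNRPB2 (exact 95% interval 0 to 5.28%) and 16 of 105 in siCtrl (15.2%, interval 8.97% to 23.6%). RAB27B, which drives docking of secretory granules and release of exosomes, had a coding 104-nt exon at 0.06 (0.04 to 0.09) in siSNRPB2 and 0.17 (0.13 to 0.22) in siCtrl, with 24 and 56 inclusion reads. It had no skipping read, which allows a share of up to 12.5% in siSNRPB2 and 5.36% in siCtrl, so its low ψ rests on reads in the flanks.

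RAB6A, which serves transport between Golgi and endoplasmic reticulum, used mainly the downstream exon of the pair printed above in both groups. The downstream exon had 793 inclusion reads in siSNRPB2 and 746 in siCtrl, and the upstream one 140 and 172. The upstream exon thus took 15.0% of the inclusion reads of the pair in siSNRPB2 (exact 95% interval 12.8% to 17.5%) and 18.7% in siCtrl (16.3% to 21.4%). These intervals overlap. The deposited ψ of the upstream exon was 0.53 in siSNRPB2 and 0.43 in siCtrl, with a Bayes factor of 0.56, and that of the downstream exon 1.00 and 0.99. Each ψ is set against a transcript with neither exon, so the 2 values need not add to 1. No skipping read was seen for either exon in either file.

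Several GTPase exons had a high Bayes factor with a ψ difference under 0.1. RAB18, found on lipid droplets and the endoplasmic reticulum, has a coding 87-nt exon with ψ of 0.01 in siSNRPB2 and 0.05 in siCtrl. It had 4 inclusion and 254 skipping reads in siSNRPB2, compared with 50 and 356 in siCtrl, and a Bayes factor of 1e+12, the largest value in the authors' deposited table. In RAB5C, an early endosome GTPase, a 216-nt exon had 0 inclusion and 24 skipping reads in siSNRPB2, compared with 32 and 53 in siCtrl, with ψ of 0.00 and 0.02. In RAB1B, which acts between endoplasmic reticulum and Golgi, a 96-nt exon had 3523 inclusion and 0 skipping reads in siSNRPB2, compared with 4650 and 35 in siCtrl. Its ψ was 1.00 in siSNRPB2 and 0.99 in siCtrl. RAB2A, a GTPase of the same route, had ψ of 0.99 and 0.92 for a 72-nt exon, with 0 skipping reads in siSNRPB2 and 16 in siCtrl. The direction differed within the group: the RAB18 and RAB5C exons had fewer inclusion reads in siSNRPB2, and the RAB1B and RAB2A exons fewer skipping reads.

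RAB35, a GTPase of recycling endosomes and of the cytokinetic bridge, fell just short of a call. Its 112-nt exon carries a decay-only label: its annotated transcripts are marked for nonsense-mediated decay, except that some may be marked as retaining an intron. ψ was 0.71 (0.54 to 0.86) in siSNRPB2 and 0.38 (0.28 to 0.5) in siCtrl, and the authors' deposited Bayes factor was 8.99. The reads were 45 inclusion and 6 skipping in siSNRPB2, compared with 40 and 34 in siCtrl. Of the 7 member exons with this label, none was called, against 12.6% of 2128 such exons in the files, and 5 of the 7 had ψ of at most 0.05 in both files.

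RAB34, a GTPase of macropinocytosis and of cilium formation, holds 9 member exons, most of them nested variants. On the event with the most informative reads, its 92-nt exon had ψ of 0.66 in siSNRPB2 and 0.49 in siCtrl, with a Bayes factor of 5.54, and was not called. Its reads there were 161 inclusion and 16 skipping in siSNRPB2, compared with 172 and 0 in siCtrl. The inclusion share of these informative reads thus pointed the other way. On the event whose downstream flank lies beyond the 66-nt exon, the 92-nt exon had ψ of 0.82 in siSNRPB2 and 0.38 in siCtrl, and the authors' deposited Bayes factor was 785705004.9. The neighbouring 66-nt exon had 0.78 and 0.27 there, with a Bayes factor of 1e+12, but 0.92 and 0.90 on its deepest event. The inclusion reads of the 92-nt exon on that longer event were 146 in siSNRPB2 and 145 in siCtrl, beside 258 and 559 reads of both isoforms and no skipping read. The choice of event thus decides whether RAB34 is called.

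The RAB-named partners had called exons in both RAB11 effectors with large exons. RAB11FIP5 and RAB11FIP1 link RAB11 to motors on recycling endosomes, and both exons are in frame and coding. The 2013-nt exon of RAB11FIP5, at chr2:73079651-73081663 on the minus strand, had ψ of 0.30 (0.27 to 0.33) in siSNRPB2 and 0.43 (0.4 to 0.47) in siCtrl, with a Bayes factor of 1e+12. It had 761 inclusion and 29 skipping reads in siSNRPB2, compared with 1133 and 17 in siCtrl. The 1902-nt exon of RAB11FIP1, at chr8:37871278-37873179 on the minus strand, went the other way, with ψ of 0.42 (0.37 to 0.48) in siSNRPB2 and 0.30 (0.26 to 0.34) in siCtrl and a Bayes factor of 28.26. Its reads were 379 inclusion and 15 skipping in siSNRPB2, compared with 279 and 0 in siCtrl. All 15 skipping reads of the RAB11FIP1 exon were in the file with the higher ψ, so the inclusion share of its informative reads pointed the other way.

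RAB3IL1, an exchange factor for RAB3A and RAB8, was the last partner with a call. Its coding 219-nt exon, at chr11:61906466-61906684 on the minus strand, had ψ of 0.52 (0.38 to 0.67) in siSNRPB2 and 0.24 (0.17 to 0.32) in siCtrl, with a Bayes factor of 490.48. There were 78 inclusion and 111 both-isoform reads in siSNRPB2, compared with 56 and 170 in siCtrl. No skipping read was seen, which allows a share of up to 3.85% in siSNRPB2 and 5.36% in siCtrl. RAB3GAP2, the non-catalytic subunit of the RAB3 GAP complex, had an uncalled 76-nt exon at 0.74 in siSNRPB2 and 0.68 in siCtrl, the most deeply read uncalled exon of middle inclusion.

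Among the TBC1D genes, skipping reads were present in both files for 4 of 6 called exons, against 1101 of 2754 over all called exons. TBC1D25 is a GAP for RAB33B on autophagosomes. Its coding 155-nt exon had ψ of 0.57 (0.45 to 0.68) in siSNRPB2 and 0.84 (0.77 to 0.91) in siCtrl, with a Bayes factor of 117.22. The reads were 65 inclusion and 23 skipping in siSNRPB2, compared with 167 and 13 in siCtrl. A second event of this exon, with another downstream flank, had a ψ difference of -0.53. Its neighbour of 128 nt had ψ of 0.50 in siSNRPB2 and 0.91 in siCtrl between the same outer flanks, with a Bayes factor of 25.36. The 128-nt exon met the call rule there, with 37 inclusion reads in siSNRPB2 and 76 in siCtrl. Neither exon had a skipping read between those flanks. On its deepest event the 128-nt exon had 0.53 in siSNRPB2 and 0.67 in siCtrl and was not called.

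TBC1D2, also called Armus, is a GAP for RAB7. Its coding 142-nt exon, exon 2 of 13, had ψ of 0.68 (0.62 to 0.75) in siSNRPB2 and 0.86 (0.77 to 0.93) in siCtrl, with a Bayes factor of 42.28. Inclusion reads were 197 in each file, while skipping reads were 44 in siSNRPB2 and 7 in siCtrl. The lengths of the TBC1D25 and TBC1D2 exons are not multiples of 3, so skipping either shifts the reading frame.

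TBC1D1, a GAP for RAB8, RAB10 and RAB14 that acts in glucose transport in muscle, has 3 little used exons that were read more often in siSNRPB2. The 120-nt exon had ψ of 0.12 (0.08 to 0.16) in siSNRPB2 and 0.00 (0 to 0.01) in siCtrl, with a Bayes factor of 1e+12. Its reads were 38 inclusion and 25 skipping in siSNRPB2, compared with 0 and 54 in siCtrl. The 0 in siCtrl allows a share of up to 5.56% of informative reads. The 162-nt exon lies upstream of it between the same flanks, with ψ of 0.08 in siSNRPB2 and 0.01 in siCtrl and 33 and 2 inclusion reads. It had a Bayes factor of 1e+12 but missed the difference of 0.1. The skipping reads are shared by these events, so the pair are not separate measurements. A further TBC1D1 exon, of 39 nt, had 0.08 in siSNRPB2 and 0.02 in siCtrl with 12 and 4 inclusion reads and a Bayes factor of 2.02, and was not called. TBC1D4, the closest relative of TBC1D1, had an uncalled 165-nt exon at 0.10 in both files.

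The other called TBC1D exons had fewer than 50 informative reads in at least 1 file. TBC1D5, a RAB7 GAP bound to retromer, had a 70-nt coding exon at 0.40 (0.28 to 0.53) in siSNRPB2 and 0.75 (0.6 to 0.92) in siCtrl, with 42 and 101 inclusion reads. It had no skipping read, which allows a share of up to 7.14% in siSNRPB2 and 2.97% in siCtrl. TBC1D7, a subunit of the TSC complex that restrains mTORC1, had an in-frame 81-nt exon with 0 inclusion and 24 skipping reads in siSNRPB2, compared with 10 and 23 in siCtrl. Its ψ was 0.01 and 0.12. TBC1D2B, a relative of TBC1D2, had a 398-nt exon of a non-coding transcript at 0.25 in siSNRPB2 and 0.11 in siCtrl, with 55 inclusion and 0 skipping reads in siSNRPB2, compared with 24 and 19 in siCtrl. TBC1D9B, a GAP for RAB11A, had a 51-nt exon with 52 inclusion and 429 skipping reads in siSNRPB2, compared with 20 and 631 in siCtrl. With ψ of 0.06 in siSNRPB2 and 0.02 in siCtrl it was not called, although its Bayes factor was 7046983.42.

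**Figure D3:**
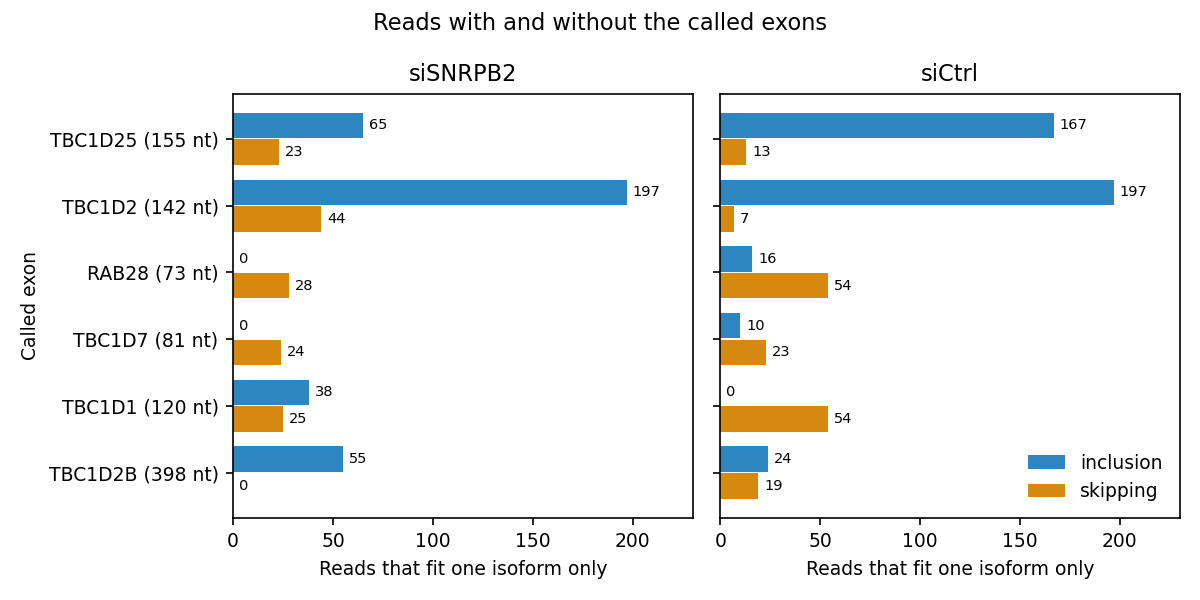
Inclusion reads (blue) and skipping reads (orange), as counts on the x axis, of the called exons of up to 500 nt with a skipping read in at least 1 file. Left is siSNRPB2 and right is siCtrl. TBC1D2 has 197 inclusion reads in each file but 44 skipping reads in siSNRPB2 against 7 in siCtrl, and TBC1D1 has 38 inclusion reads in siSNRPB2 and 0 in siCtrl.

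The deepest uncalled exons of middle inclusion, with ψ of 0.1 to 0.9 in both files, came from RAB3GAP2, RAB34 and RAB6A, given above, and from RAB5B and RAB9A. RAB5B, of early endosomes, had a 152-nt exon at 0.22 in siSNRPB2 and 0.26 in siCtrl, with 114 and 155 inclusion reads. No skipping read was seen in either file for this exon, the RAB3GAP2 exon or the upstream RAB6A exon. Their ψ rests on how reads divide between exon and flanks. The RAB9A exons shared 11 skipping reads in siSNRPB2 and 7 in siCtrl. RAB9A, which returns receptors from late endosomes to the Golgi, had overlapping exons of 89 nt and 168 nt at 0.84 and 0.73 in siSNRPB2, and at 0.86 and 0.65 in siCtrl. Without replicates these values do not show that inclusion was equal.

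By what the exons encode, 83 of the 108 (76.9%) were fully coding, against 58.8% of all exons, and 7 (6.48%) had the decay-only label, against 11.4%. Their median length was 112.5 nt, against 121 nt over all exons, and 50 (46.3%) had a length divisible by 3, against 41.8%. Of the 13 called exons 7 (53.8%) were in frame, against 45.3% of all called exons. In 66 of the 108 exons (61.1%) no skipping read was seen in either file, against 51.1% of all exons, and 5 of the 13 called exons were of this kind, against 1088 of 2754 over all called exons. Skipping reads were present in both files for 31 exons, of which 6 (19.4%) were called, against 16.1% of all such exons.

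Reads per gene were taken from the deepest event of each gene, as reads that fit either isoform, scaled as RPM to the file total over 1 event per gene. In 64 member genes with at least 20 reads on average the median log2 ratio, siSNRPB2 over siCtrl, was 0.02, and it was 0.01 over all 9436 genes. Past 1.5-fold, 4 member genes were lower (6.25%, against 9.53% of all genes) and 7 higher (10.9%, against 11.1%). Of the 23 member genes with at least 1000 reads none was past 1.5-fold in either direction, and 46 and 60 of 3295 genes of that depth were lower and higher. Medians by role were -0.01 for 33 GTPases, 0.08 for 9 partners and -0.07 for 22 TBC1D genes. In bulk RNA, fewer cells of a type and less RNA per cell cannot be told apart.

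**Figure D4:**
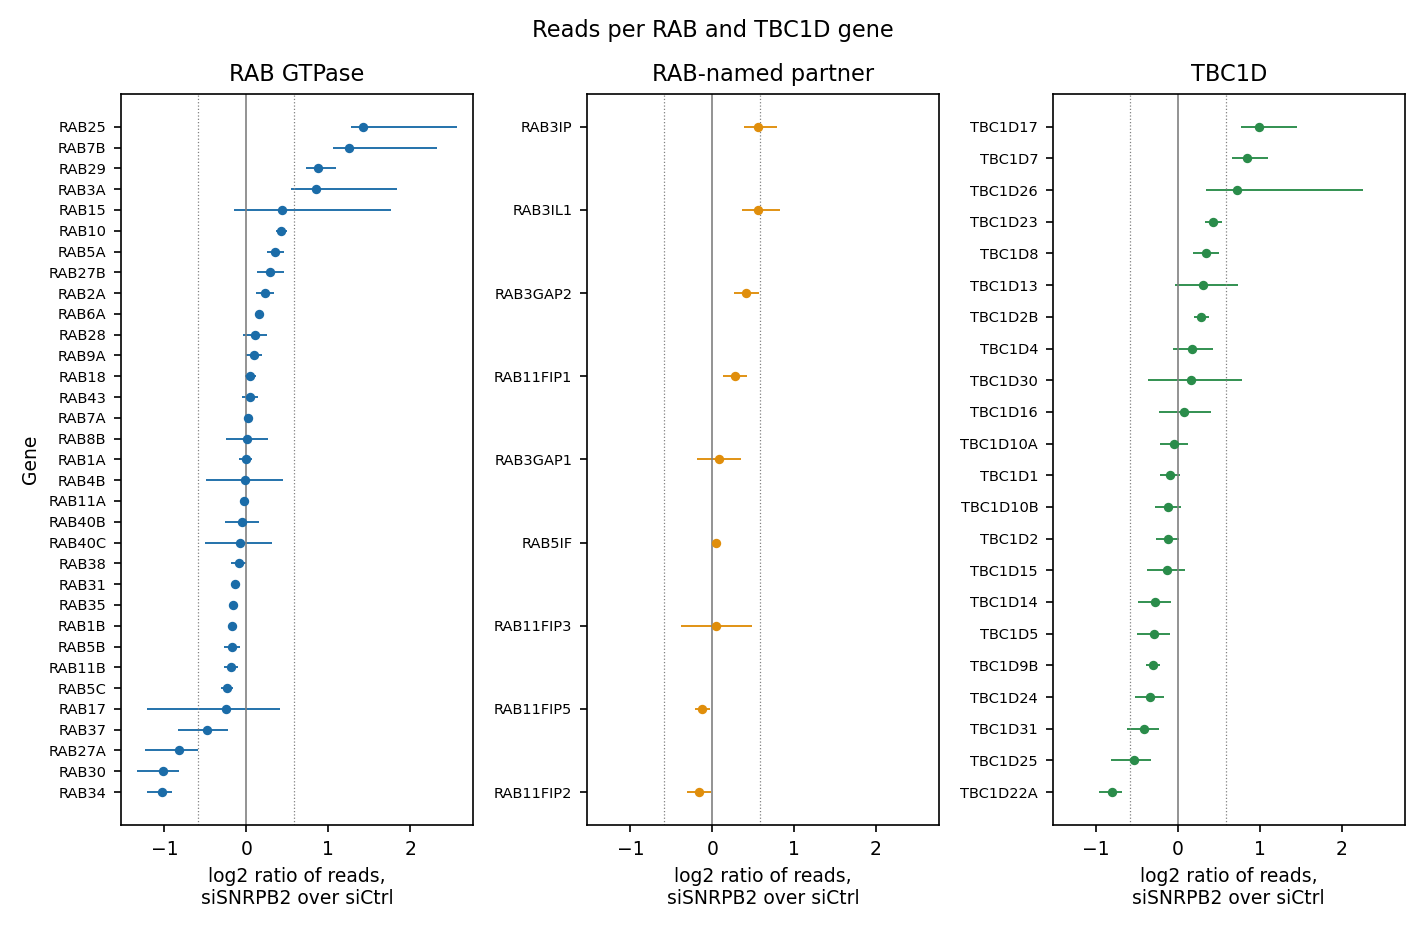
Log2 ratio of reads per gene, siSNRPB2 over siCtrl (x axis, log2 of RPM plus a pseudocount of 1), for 64 genes (y axis) in panels by role. Bars are 95% counting intervals of the ratio without the pseudocount, solid lines mark 0 and dotted lines 1.5-fold. RAB34 and RAB30 lie lowest at -1.03 and -1.01, while RAB25 and RAB7B, with few reads, lie highest at 1.42 and 1.25.

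RAB34 was the lowest member with at least 100 reads on average, at 32.3 RPM in siSNRPB2 and 67.0 RPM in siCtrl, from 511 and 1199 reads, a log2 ratio of -1.03 (counting interval -1.21 to -0.90). Its 11 events with enough reads had ratios between -1.37 and 0.21, and 9 of them were below 0. RAB30, a Golgi GTPase, followed at -1.01 with 179 and 426 reads, and all 4 of its events were below 0. RAB27A, the partner of RAB27B in secretion, had 119 reads in siSNRPB2 and 252 in siCtrl, a ratio of -0.83, and all 3 of its events were below 0. TBC1D22A was at -0.81 on its deepest event, with 620 and 1240 reads, but the median over its 5 events was 0.06. TBC1D25 was at -0.54 with 222 and 373 reads, and all 7 of its events were below 0.

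At the high end, TBC1D17, a GAP for RAB8, had 211 reads in siSNRPB2 and 111 in siCtrl, a log2 ratio of 0.99, with 0.01 on its other event. RAB29 had 641 and 385 reads, a ratio of 0.88, and its 4 events lay between 0.60 and 0.88. Reads of RAB29 were thus more frequent in siSNRPB2 while ψ of its 72-nt exon was lower. TBC1D7 was at 0.84 with 438 and 269 reads, but its 3 events ran between -0.16 and 0.84. RAB3IP, an exchange factor for RAB8, was at 0.56 with 467 and 351. RAB3IL1 was at 0.56 with 353 and 264 reads, but at -0.08 on its other event. With fewer than 100 reads on average, RAB25, a RAB11 relative of epithelia, had 93 reads in siSNRPB2 and 28 in siCtrl, and RAB7B had 85 and 30. RAB7A, with 17563 and 19511 reads, was at 0.02.

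Reads that fit neither isoform, such as those running into an intron, were compared with those that fit either. The median log2 ratio of their proportion, siSNRPB2 over siCtrl, was 0.02 over the 64 member genes and 0.15 over all genes, and it was above 0 in 33 member genes (51.6%) and in 61.3% of all genes. The genes with fewer compatible reads included some with more of these: TBC1D25 had 492 reads of neither isoform in siSNRPB2 and 217 in siCtrl, and RAB30 had 306 and 188. TBC1D17 had 143 in siSNRPB2 and 223 in siCtrl. Which sequences these reads cover cannot be seen in the files.

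The wider RAB pathway was read through a list of 111 genes that are no members, of which 110 were matched and 73 had 229 exons with enough reads. Of these exons 22 were called lower and 22 higher (19.2%, against 14.7% of all exons). GAPs without the TBC1D name had 5 lower and 2 higher of 13 exons, exchange factors 5 and 13 of 106, effectors 10 and 7 of 95, and prenylation and recycling proteins 2 and 0 of 15. MADD, an exchange factor for RAB3 and RAB27, had a 102-nt exon at 0.44 in siSNRPB2 and 0.98 in siCtrl, with 109 and 243 inclusion reads and no skipping read. RUFY2, a RAB effector, had a 174-nt exon at 0.28 in siSNRPB2 and 0.75 in siCtrl. Its reads were 79 inclusion and only 2 skipping in siSNRPB2, compared with 176 and 0 in siCtrl. EVI5, a TBC protein that binds RAB11, had a 147-nt exon at 0.63 in siSNRPB2 and 0.20 in siCtrl, with 70 inclusion and 8 skipping reads in siSNRPB2, compared with 36 and 43 in siCtrl. The other 2 called EVI5 exons went the opposite way, at 0.42 in siSNRPB2 and 0.77 in siCtrl for 33 nt and at 0.76 and 0.98 for 230 nt.

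MLPH, which ties RAB27A to myosin Va, had a 188-nt exon at 0.35 in siSNRPB2 and 0.78 in siCtrl. DENND4A, an exchange factor for RAB10, had a 129-nt exon at 0.76 in siSNRPB2 and 0.38 in siCtrl, and RIN2, an exchange factor for RAB5, a 73-nt exon at 0.86 and 0.48. The MLPH and RIN2 exons had no skipping read in either file, so their differences, like that of MADD, rest on how reads divide between exon and flanks. MLPH and MADD also held called exons of the opposite direction, at 0.22 in siSNRPB2 and 0.09 in siCtrl for a 189-nt exon of MLPH and at 0.13 and 0.01 for a 54-nt exon of MADD. The 6 differences given first for each gene, from 0.38 to 0.54 in size, were the largest of the list among exons with 50 or more informative reads per file. With the same minimum and 1 event per exon, the largest difference of a called member exon was 0.28, in RAB3IL1.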

How the data were processed

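The 4 libraries, 2 per group, hold total RNA. The submitters' processing notes name STAR 2.7 and the build hg38. Per the file headers, ψ comes from MISO, and the authors deposited it as a fraction with an interval and with read counts per class of compatibility. The authors' deposited comparison gives the ψ difference and the Bayes factor, a ratio of evidence. Not given in the sources used here are the MISO version, the interval's level and any merging of libraries.

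Exon boundaries of GENCODE release 29 tied events to genes. For each skipped exon the event with the most informative reads was kept among those with at least 20 in each file. Reads per gene were scaled to the file total over 1 event per gene, with a pseudocount of 1 RPM and at least 20 reads on average. Intervals of shares and read ratios are exact (Clopper-Pearson, 95%) and, like the limits for a count of 0 (3 counts), cover counting error only. Python 3.11.15, pandas 2.3.3 and scipy 1.17.1 were used, and the code was tested on simulated data.

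Members, gene lists and thresholds were chosen with earlier results of these data known. Genes named were all called member exons, the 6 deepest uncalled exons of middle ψ, the 5 highest and 5 lowest genes with at least 100 reads, and the 6 largest called differences of the wider list with at least 50 informative reads per file. Exons with a high Bayes factor but a small difference, RAB35, the other events of RAB34, the RAB6A pair, the TBC1D1 and TBC1D4 exons not called, and genes under 100 reads were added after their values were seen. No p-value was computed.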

Additional observations from a re-analysis of the deposited data

How the results depend on the processing

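No paired analysis was possible because the files hold 1 value per group, and no library could be left out. The 8 member exons called lower became 3 with a minimum of 50 informative reads, 3 with a ψ difference of at least 0.2 and 5 where skipping reads were required in each file. The 5 called higher became 1 with a ψ difference of at least 0.2, 3 with a Bayes factor of at least 100, 3 when the share of inclusion reads replaced ψ and 1 where skipping reads were required in each file. The shares called under these settings, members against all exons, were 8.75% against 13.2%, 3.70% against 10.1%, 8.33% against 11.2%, 8.33% against 8.10% and 19.4% against 16.1%, in the order minimum of 50 reads, larger difference, larger Bayes factor, inclusion share and skipping reads in each file. The median size of the ψ difference was 0.07 over exons with ψ between 0.05 and 0.95 in at least 1 file. The inclusion share reversed the RAB11FIP1 exon, to a difference of -0.0381. It kept 6 of the 13 called exons at a difference of 0.1 and put 6 below it, RAB11FIP5 and the 5 exons with no skipping read in either file, whose share is complete by construction. The inclusion share also brought in exons outside the 13. These were the 162-nt exon of TBC1D1, higher, and the 87-nt exon of RAB18 and the 216-nt exon of RAB5C, both lower. The median over the events of an exon, added after the data were seen, could move only TBC1D25, the 1 called exon with more than 1 event, to -0.40; the other 12 are the same by construction. The median log2 ratio of reads per gene ran between -0.0231 and 0.0624 under its 5 alternatives. Depth limits the calls in RAB27B, RAB28, RAB29, TBC1D2B, TBC1D5 and TBC1D7, with fewer than 50 informative reads in at least 1 file.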

Other observations

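Of the member events, 3 in 2 genes were listed in the siSNRPB2 file only and 8 in 4 genes in the siCtrl file only, of 2751 and 2240 events listed in 1 file. They entered no comparison. Between the same flanks, the 139-nt exon of TBC1D15, a GAP for RAB7, took 73.4% of the inclusion reads that it and the next exon of 211 nt shared in siSNRPB2 (201 of 274 reads, exact 95% interval 67.7% to 78.5%) and 54.6% in siCtrl (190 of 348, interval 49.2% to 59.9%). The ψ of the 139-nt exon on that event was 0.99 in siSNRPB2 and 0.98 in siCtrl, and that of the 211-nt exon 0.96 and 0.98. On its deepest event the 211-nt exon had ψ of 0.78 (0.58 to 0.99) in siSNRPB2 and 0.96 (0.87 to 1) in siCtrl. The Bayes factor there was 0.66, with 88 inclusion reads in siSNRPB2 and 165 in siCtrl. Neither exon was called, and the difference in shares was chosen after the values were seen.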
